A study of Sus scrofa with 6 samples.

Results

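Aromatases, 17-beta hydroxysteroid dehydrogenases and steroid sulfotransferases were followed in ovary and in uterine tissue labelled myometrium of sows. All probe sets whose single platform gene symbol was CYP19A1, CYP19A3, HSD17B1, HSD17B2, HSD17B4, SULT1E1 or SULT2A1 were taken, which gave 7 of 6765 named genes and 18 of 23999 probe sets. CYP19A1 had 4, CYP19A3 had 8, HSD17B2 had 2 and each of the other genes had 1. Each tissue was sampled from non-pregnant (NP), early pregnant (EP) and late pregnant (LP) sows, with 1 Affymetrix array for each tissue and stage and thus 6 arrays without replicates. The labels used here name no gestation day, breed or age, nor do they say whether an array carried RNA of 1 animal or of several of the 3 pigs per stage that the design text counts.

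Aromatase removes a carbon from androgens and turns them into oestrogens. HSD17B1 reduces the weak oestrogen oestrone to the potent oestradiol, so aromatase and HSD17B1 together stand for synthesis. HSD17B2 and HSD17B4 run the opposite way and oxidise oestradiol to oestrone, and sulfotransferases attach a sulfate that keeps steroids from binding their receptors. In the pig, granulosa cells of the follicle make oestrogen, the early conceptus releases oestrogen as a signal of pregnancy, and the endometrium oxidises and sulfonates oestrogens. The pig carries 3 closely related aromatase genes, CYP19A1, CYP19A2 and CYP19A3, which lie next to each other in the RefSeq gene table.

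Signals were MAS5 values on a linear scale, and a floor of 81.7 was set, the 40th percentile of all signals. Lower signals were set to the floor, and log2 values were used from there on. Where the dimmer side of a ratio held a floored array, the ratio can only bound the difference and is written as "at least". Log2 differences between tissues given with an SE are fitted values after the floor, and floored arrays limit them too. A fold between tissues is taken from mean log2 values over the 3 stages, and so compares geometric means. The share of probe sets above the floor was 57.4% on the lowest and 61.6% on the highest array. The tissue label was checked against markers. Of 14 uterine epithelium genes, 10 were higher on the arrays labelled myometrium (EPCAM, KRT8, KRT18, KRT19, CDH1, CLDN4, CLDN7, SLPI, S100G and RBP4), whereas 0 of 10 measured smooth muscle genes were, and their median log2 difference, ovary minus tissue labelled myometrium, was 0.89. Of 12 measured luteal, granulosa and theca genes, 11 were higher in ovary, namely RLN2, INSL3, LHCGR, PTGFR, INHA, FST, FSHR, AMH, SERPINE2, NR5A1 and GATA4. Among all tested probe sets 2.84% were called higher in ovary and 2.23% higher in the other tissue. KRT18, CLDN4, CLDN7 and S100G were under the floor on every ovary array. INSL3, LHCGR, FSHR, AMH, NR5A1 and GATA4 were under it on every uterine array. These genes entered the test through the tissue in which they were high. For them a difference was built in, so the marker counts are descriptions.

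Aromatase signal was bright in ovary at every stage, under CYP19A3, and appeared on the early pregnant uterine array under CYP19A1. The brightest CYP19A3 probe set read 8691, 5059.9 and 7198 on the NP, EP and LP ovary arrays, against 39.2, 131 and 19.0 on the corresponding arrays labelled myometrium. The tissues did not overlap, and the early pregnant ovary was the dimmest of the ovary arrays. By limma, ovary was at least 71.3-fold higher, a log2 difference of 6.16 with an SE of 0.36 (adjusted p = 0.00358). The second-brightest CYP19A3 probe set had the same order, with 2629, 1438 and 2414 in ovary, against 8.4, 13.8 and 1.9 on the arrays labelled myometrium, all of them under the floor. It was at least 25.6-fold higher in ovary, a log2 difference of 4.68 with an SE of 0.32 (adjusted p = 0.00495).

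The other CYP19A3 probe sets did not all follow. One that ends in s_at read 319, 203 and 376 in ovary, against 55.0, 31.0 and 106 on the arrays labelled myometrium, and was at least 3.26-fold higher in ovary (adjusted p = 0.0295). With a floor at the 60th percentile its log2 difference of 1.70 became 0.33 and did not pass (adjusted p = 0.310). Another, above the floor on all 6 arrays, read 400, 353 and 391 in ovary, against 634, 496 and 445 on the arrays labelled myometrium, with a log2 difference of -0.45 ± 0.29 (SE) that did not pass (adjusted p = 0.422). The remaining 4 lay at or under 38.0 on every array. By the manufacturer's naming, a suffix of s_at or x_at marks a probe set whose probes can match more than 1 transcript. Probe sequences were not used here, so transcripts of 1 aromatase gene may add to a signal named for another, and the symbols are those of the platform.

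CYP19A1 was above the floor on the early pregnant array labelled myometrium and on no other. Its brightest probe set read 14.1, 49.4 and 10.4 on the NP, EP and LP ovary arrays, against 35.6, 596 and 30.3 on the arrays labelled myometrium. A further probe set read 70.6, 4.7 and 2.1 in ovary, against 12.3, 171 and 16.9. The early pregnant array labelled myometrium was thus at least 7.29-fold and at least 2.10-fold above the non-pregnant array of that tissue. With the floor at the 60th percentile the log2 ratio of the brightest, 2.87, became 1.28, and that of the further one, 1.07, became 0. The other CYP19A1 probe sets lay at or under 35.6 on every array. None of the 4 was above the floor on the number of arrays needed for the limma test.

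No probe set carried CYP19A2 as its single symbol. One probe set, which the platform names for CYP19A1, CYP19A2 and CYP19A3 together and which is therefore no member, read 2951, 1662 and 2856 in ovary, against 3.9, 350.1 and 1488 on the arrays labelled myometrium. Its signal on the late pregnant array labelled myometrium was at least 18.2-fold above that on the non-pregnant array. On that late pregnant array every CYP19A1 probe set was under the floor, and the CYP19A3 probe sets above it read 445 and 106. For the probe set of 3 symbols, the late pregnant ovary array was 1.92-fold above the array labelled myometrium. In the non-pregnant pair the ovary array was at least 36.1-fold above. Over the stages its tissue difference of 2.79 ± 0.77 (SE) did not pass (adjusted p = 0.113).

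**Figure D1:**
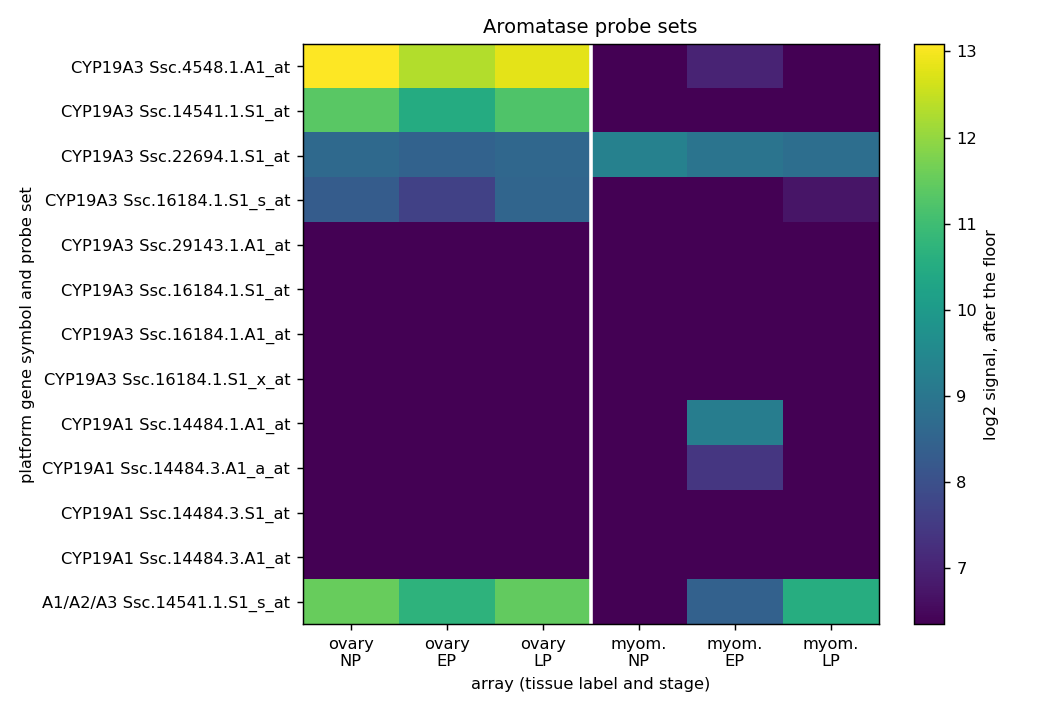
Log2 signal, after raising values under 81.7 to that floor, of the 12 probe sets named for CYP19A3 or CYP19A1 and, in the last row, the probe set named for 3 aromatases (rows), on the 3 ovary and 3 myometrium-labelled (myom.) arrays (columns). The upper CYP19A3 rows are bright on the ovary arrays, CYP19A1 is bright on the early pregnant uterine array (596 and 171), and the last row reads 1488 on the late pregnant uterine array.

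HSD17B1, which completes oestradiol synthesis, was also an ovarian transcript. It read 7505, 4560.0 and 12061 on the NP, EP and LP ovary arrays, against 66.1, 545 and 14.0 on the arrays labelled myometrium. Every ovary array lay above every array of the other tissue, and the early pregnant array labelled myometrium was the one uterine array above the floor. By limma, ovary was at least 48.4-fold higher, with a log2 difference of 5.60 and an SE of 0.79 (adjusted p = 0.0218). In the early pregnant pair the difference was 3.07 on the log2 scale, and in the non-pregnant and late pregnant pairs it was at least 6.52 and at least 7.21.

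HSD17B2, the oestradiol-oxidising enzyme of the endoplasmic reticulum, was near or under the floor in non-pregnant tissue and bright on the early pregnant uterine array. The brighter probe set read 37.0, 144 and 400.4 on the NP, EP and LP ovary arrays, against 69.9, 9701 and 1591 on the arrays labelled myometrium. The dimmer probe set read 39.8, 38.8 and 105 in ovary, against 6.0, 3303 and 297. Both probe sets peaked on the early pregnant array labelled myometrium and were highest among the ovary arrays in late pregnancy. The tissues overlapped, and the log2 differences of -2.69 ± 1.09 and -2.28 ± 0.97 (SE) did not pass by limma (adjusted p = 0.229 and 0.251).

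SULT1E1, the sulfotransferase with the highest affinity for oestrogens, was not above the floor on any ovary array. It read 19.8, 17 and 24.3 on the NP, EP and LP ovary arrays, against 57.4, 3192 and 881 on the arrays labelled myometrium. SULT2A1, which sulfonates dehydroepiandrosterone and other hydroxysteroids, read 79.5, 309 and 35.6 in ovary, against 111, 26616 and 21610.1. Non-pregnant signals of both genes lay near or under the floor in both tissues, and the pregnant uterine arrays stood above all others. The tissue differences of -2.91 ± 0.95 for SULT1E1 and -4.97 ± 1.39 for SULT2A1 (SE, log2) did not pass by limma (adjusted p = 0.157 and 0.114). Without the non-pregnant pair of arrays, SULT2A1 differed by -7.24 and passed (adjusted p = 0.0281), while it differed by -4.25 without the early pregnant pair and by -3.44 without the late pregnant pair and did not pass (adjusted p = 0.522 and 0.309).

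HSD17B4, a peroxisomal enzyme that oxidises oestradiol and also takes part in the breakdown of fatty acids, was on in both tissues. It read 2984, 6816 and 10226 on the NP, EP and LP ovary arrays, against 1780.3, 2544 and 2039 on the arrays labelled myometrium. The lowest ovary array lay above the highest uterine array. Ovary averaged 2.82-fold above tissue labelled myometrium, with an SE of 0.32 on the log2 scale, which did not pass (adjusted p = 0.0618). Within pairs the log2 difference was 0.75 in non-pregnant, 1.42 in early pregnant and 2.33 in late pregnant tissue. HSD17B4 was the one inactivating member with every ovary array above every uterine array.

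**Figure D2:**
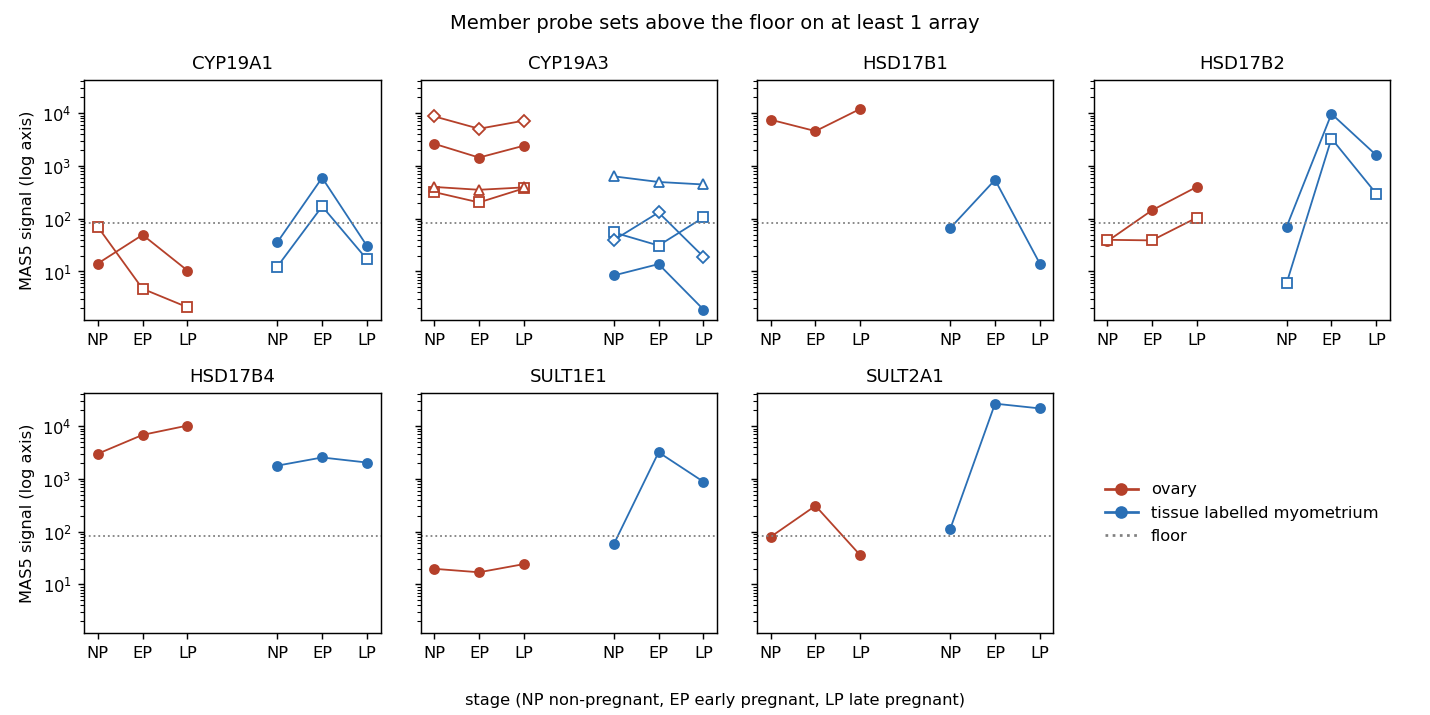
MAS5 signal (log axis) of each member probe set above the floor of 81.7 (dotted) on at least 1 array, by gene (panels), with the ovary arrays on the left of each panel and the arrays labelled myometrium on the right, and a marker shape for each probe set. SULT2A1 reads 26616 and 21610.1 on the pregnant uterine arrays and at most 309 elsewhere, and HSD17B1 reads 4560.0 to 12061 in ovary.

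Among the members, tissue calls fell on synthesis probe sets alone, and CYP19A1 was not among them. Of the 13 synthesis probe sets, 5 were above the floor on at least 2 arrays and could be tested, and 4 of them were higher in ovary, 3 named for CYP19A3 and 1 for HSD17B1. Across all 15882 probe sets tested, 2.84% were higher in ovary and 2.23% in the tissue labelled myometrium, together 5.07% (limma, additive fit of tissue and stage, Benjamini-Hochberg adjustment, threshold 0.05). Of the 5 inactivation probe sets all were tested and 0 passed in either direction, with 1 log2 difference above 0 and 4 below. At an unadjusted p under 0.05, 7 of the 10 tested member probe sets differed between the tissues, as did 3471 of all 15882. The 4 called probe sets were above the floor on 3 ovary arrays and on at most 1 uterine array, so each entered the test through the tissue in which it was high. SULT1E1, SULT2A1 and the dimmer HSD17B2 probe set likewise entered through the uterine arrays. A difference was built into such entries, and the counts are descriptions.

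Over the stages, 4 synthesis probe sets and HSD17B4 had every ovary array above every uterine array, as had 14.6% of all tested probe sets. The reverse held for the CYP19A3 probe set above the floor on all arrays, and for 12.8% of all tested probe sets. Any stage effect that differs between the tissues enters the residual of the fit, which keeps 2 degrees of freedom. Arrays of a tissue are different stages, not replicates, and p-values measure the spread between these arrays rather than between animals. Without the filter on low signals, or without the early pregnant pair, 0 of the synthesis probe sets passed, and without the non-pregnant or the late pregnant pair 2 passed.

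**Figure D3:**
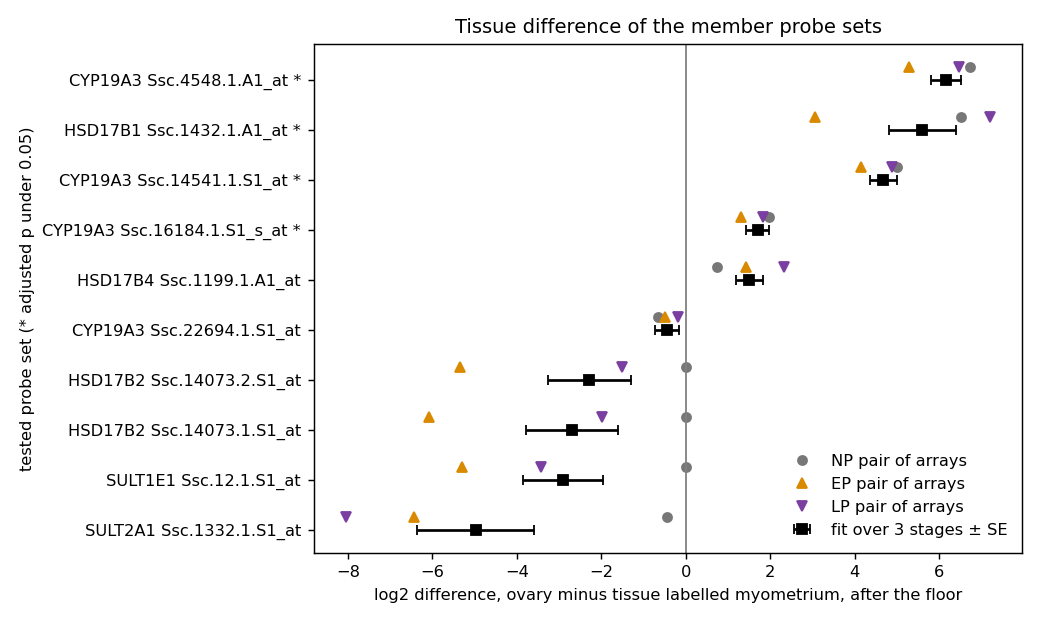
Log2 difference, ovary minus tissue labelled myometrium after the floor, of the 10 tested member probe sets, as the limma fit over 3 stages (squares, bars are SE) and for each pair of arrays of a stage (symbols above). A pair with both arrays at the floor lies at 0, and the probe sets with an asterisk passed, from CYP19A3 at 6.16 to CYP19A3 at 1.70.

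Stages within a tissue were compared as ratios of 2 single arrays, with no test. In the ovary, synthesis members differed by less than 2-fold from non-pregnancy, while HSD17B4, HSD17B2 and SULT2A1 differed by more. HSD17B4 was 2.28-fold higher in early pregnant and 3.43-fold higher in late pregnant than in non-pregnant ovary. HSD17B2 was at least 4.90-fold higher in late pregnant than in non-pregnant ovary and 2.78-fold higher than in early pregnant ovary. SULT2A1 was at least 3.78-fold higher in early pregnant than in non-pregnant ovary, and at least 3.78-fold lower in late pregnant than in early pregnant ovary. HSD17B1 was 2.64-fold higher in late pregnant than in early pregnant ovary.

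Counted over the ovary arrays, early over non-pregnant, 2 of 3 measured inactivation probe sets and 0 of 5 synthesis probe sets were higher by at least 2-fold and 0 were lower, against 2.45% of all measured probe sets higher and 2.15% lower. Late over non-pregnant gave 2 of 3 and 0 of 5 higher, and 0 lower, against 2.92% higher and 3.65% lower. Both comparisons share the non-pregnant array. Late over early gave 1 of 4 inactivation probe sets higher and 1 lower, and 1 of 5 synthesis probe sets higher, against 1.5% higher and 2.71% lower. A probe set was measured if either array lay above the floor. On the non-pregnant ovary array HSD17B2 and SULT2A1 lay under it and could only be called higher, so the counts are descriptions. With the floor at the 60th percentile the calls of SULT2A1 and HSD17B2 in ovary ended, with log2 ratios of 0.33 and 0.70.

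In the uterine tissue SULT2A1, HSD17B2 and SULT1E1 were higher on both pregnant arrays than on the non-pregnant array. SULT2A1 was 239-fold higher in early pregnancy and 194-fold higher in late pregnancy than in non-pregnant tissue, where it read 111, near the floor. With the floor at the 60th percentile these log2 ratios, 7.90 and 7.60, became 6.76 and 6.46. The early pregnant array was at least 119-fold above the non-pregnant array for HSD17B2 (at least 40.4-fold by its other probe set) and at least 39.1-fold for SULT1E1. The late pregnant array was at least 19.5-fold above it for HSD17B2 (at least 3.63-fold by the other probe set) and at least 10.8-fold for SULT1E1. With the floor at the 60th percentile the dimmer HSD17B2 probe set was 0.27 on the log2 scale in late over non-pregnant tissue. HSD17B4 differed by no more than 1.43-fold between any of these arrays.

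Between the pregnant uterine arrays the members parted. On the late pregnant array HSD17B2 was 6.10-fold and, by its other probe set, 11.1-fold lower than on the early pregnant array, and SULT1E1 was 3.62-fold lower. SULT2A1 differed by 1.23-fold between them. CYP19A1 was at least 7.29-fold and HSD17B1 at least 6.67-fold lower on the late than on the early pregnant array. HSD17B1 was likewise at least 6.67-fold higher on the early pregnant than on the non-pregnant array, so its signal above the floor was limited to 1 of 3 arrays.

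In early over non-pregnant uterine tissue, 4 of 5 inactivation and 3 of 5 measured synthesis probe sets were higher by 2-fold or more and 0 were lower, against 8.76% of all measured probe sets higher and 10.3% lower. In late over non-pregnant tissue 4 of 5 inactivation probe sets and 0 of 2 synthesis probe sets were higher and 0 lower, against 10.9% higher and 12.6% lower. These comparisons share the non-pregnant array. In late over early pregnant tissue 0 were higher, while 3 of 5 inactivation and 3 of 6 synthesis probe sets were lower, against 5.87% higher and 5.62% lower. HSD17B2, SULT1E1, CYP19A1 and HSD17B1 were under the floor on the non-pregnant array and entered through a pregnant one. Such entries could not be lower than in non-pregnancy. CYP19A1 and HSD17B1 were under the floor on the late pregnant array too, and could only be lower than in early pregnancy. A direction was thus built in, and the counts are descriptions. HSD17B2 gave 2 of the called inactivation probe sets in each comparison. CYP19A1 gave 2 of the called synthesis probe sets in the comparisons with the early pregnant array. The counts are therefore of probe sets, not of separate genes. Each ratio rests on single arrays and has no replicate check.

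**Figure D4:**
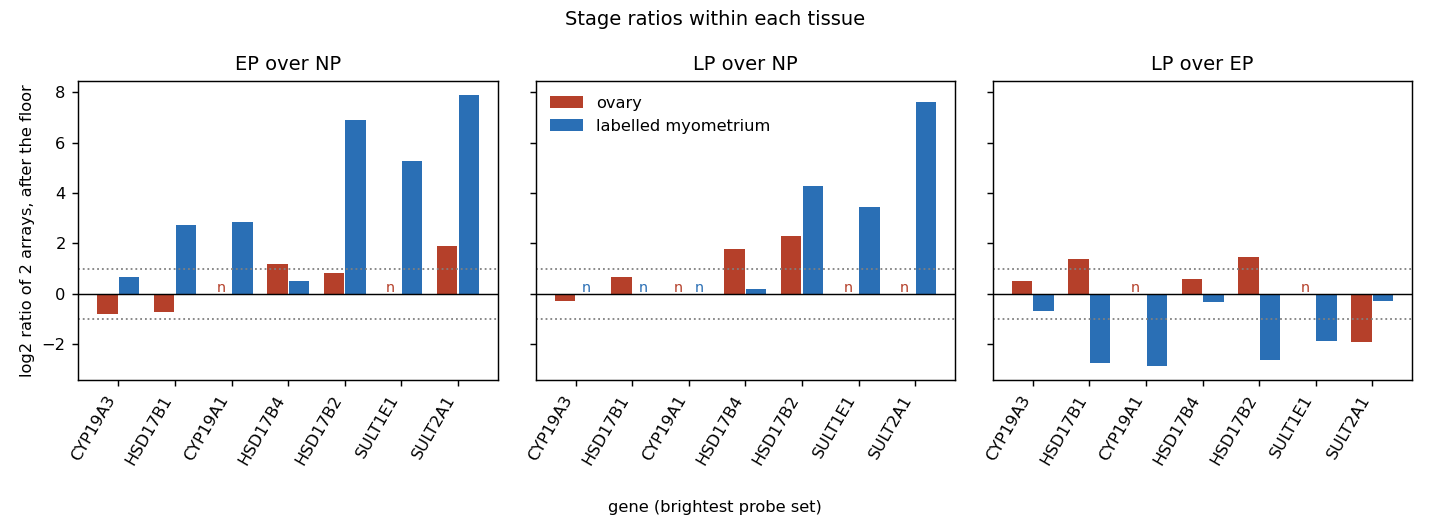
Log2 ratio of the later to the earlier array within ovary (left bar) and within tissue labelled myometrium (right bar) for the brightest probe set of each gene, in 3 panels for the 3 stage pairs. Dotted lines mark 2-fold, "n" marks a pair with both arrays at the floor, and bars with an array at the floor are lower bounds. Uterine SULT2A1 reaches 7.90 in early over non-pregnant tissue, and HSD17B1 and HSD17B2 run in opposite directions in the tissues in late over early pregnancy.

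A stage change common to both tissues was tested in the limma fit and passed for 0 of 15882 probe sets in each contrast, a background of 0%. At an unadjusted p under 0.05 the early over non-pregnant contrast gave 686 probe sets, 2 of them members. Late over non-pregnant gave 964, with 1 member, and late over early gave 261, with 0 members. The lowest adjusted p of a member was 0.711, between late pregnant and non-pregnant tissue. SULT2A1 and HSD17B2, the members below 0.05 unadjusted in early pregnancy, had fitted log2 changes of 4.91 and 3.85 (adjusted p = 0.822 for both). These are averages of unlike changes in the tissues. The SULT2A1 log2 ratio was at least 1.92 in ovary and 7.90 in uterine tissue. For HSD17B2 it was at least 0.82 in ovary and at least 6.89 in uterine tissue.

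Trophoblast markers also differed between the arrays labelled myometrium, though not in step with every member. The summed signal of the 9 trophoblast genes with a probe set was 809 to 1690.2 on the ovary arrays, and 1600.4, 37195.5 and 57843 on the NP, EP and LP arrays labelled myometrium, with 2, 9 and 8 genes above the floor. PAG6, a pregnancy-associated glycoprotein of the trophoblast, read 75.2, 22022 and 28500 there, and PPAG3 read 45.9, 8169 and 15847. GATA3 read 59.2, 3168 and 2778, and PEG10 read 351, 435 and 8302. The trophoblast sum was higher on the late than on the early pregnant uterine array, whereas HSD17B2, SULT1E1, CYP19A1 and HSD17B1 were lower. That sum did not stand for every trophoblast gene. In late over early pregnant uterine tissue 1 of 9 measured, PEG10, was 2-fold or more higher. The 2 that were lower were IFNG and CYP17A1, which read 218 and 92.4 on the EP and LP arrays. Across all measured probe sets 5.87% were higher and 5.62% lower in that comparison. Of the 8 tested trophoblast genes GATA2 alone passed between the tissues, toward the arrays labelled myometrium, against 2.23% of all tested probe sets in that direction. GATA2 read 887, 811 and 1243 on the NP, EP and LP arrays of that label, so it was bright there without pregnancy as well. IFNG, named after its values were seen, is secreted by the pig conceptus and read 74.0, 1719.6 and 64.8 there, highest on the same array as CYP19A1 and HSD17B1. Whether conceptus tissue had a part in the SULT2A1, SULT1E1, HSD17B2, CYP19A1 and HSD17B1 signals was not tested.

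Epithelial, luteal and smooth muscle markers differed by stage as well. The summed signal of 14 uterine epithelium genes was 9258, 5702 and 3451 on the NP, EP and LP ovary arrays, against 77006, 168131 and 196119 on the uterine arrays. The glandular proteins ACP5, UABP-2 and SPP1 were at least 21.6-fold higher on both pregnant uterine arrays than on the non-pregnant one. The sum did not stand for every gene, since 6 of 14 were 2-fold or more higher and 4 lower in early over non-pregnant uterine tissue. The lower ones were KRT8, KRT18, KRT19 and S100G, with log2 ratios of -1.15, -1.27, -1.01 and -3.79. Across all measured probe sets 8.76% were higher and 10.3% lower in that comparison. Luteal, granulosa and theca genes summed to 74176, 91816 and 100263 on the ovary arrays, and to 1172, 8163 and 11538 on the arrays labelled myometrium, where STAR read 13.2, 5573 and 6907. RLN2, which encodes relaxin, read 11029, 31900 and 29660.1 on the ovary arrays and made up much of the ovarian sum. In early over non-pregnant ovary 2 of 12 measured genes of that list were 2-fold or more higher and 2 lower, against 2.45% and 2.15% of all measured probe sets. The lower ones were INHA at -1.28 and FST at -1.13 on the log2 scale, and the median of the list was -0.06.

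The early pregnant ovary, the array on which CYP19A3 and HSD17B1 were lowest in that tissue, also had the most smooth muscle signal. Smooth muscle genes summed to 37686, 46855 and 29310.2 on the NP, EP and LP ovary arrays, against 12959, 23465 and 24963.5 on the arrays labelled myometrium. Of 10 measured genes, 5 were 2-fold or more higher in early over non-pregnant ovary, among them SYNM at 2.28 and CNN1 at 1.68 on the log2 scale. In late over early pregnant ovary 7 were lower. Across all measured probe sets 2.45% were higher in the former and 2.71% lower in the latter comparison. The part of smooth muscle in the members' values was not tested. MC2R, the adrenal marker with a probe set, was 77.6 or less on the ovary arrays and 114 or less on the others. ALB, the defining liver transcript, lay under the floor on all arrays, as did TTR. Of 2 tested liver genes 0 passed between the tissues, against 5.07% of all tested probe sets in either direction. Some genes of that list were above the floor. APOA1 read 5445, 6622 and 6105 on the NP, EP and LP ovary arrays, against 2783, 2567.5 and 598 on the arrays labelled myometrium. APOA2 was above the floor on the early pregnant uterine array alone, at 956.5. TF, which encodes transferrin, read 62.0, 574 and 4121 on the uterine arrays in order of stage and 372 on the late pregnant ovary array. In whole tissue, fewer cells of a type and less RNA per cell cannot be told apart.

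**Figure D5:**
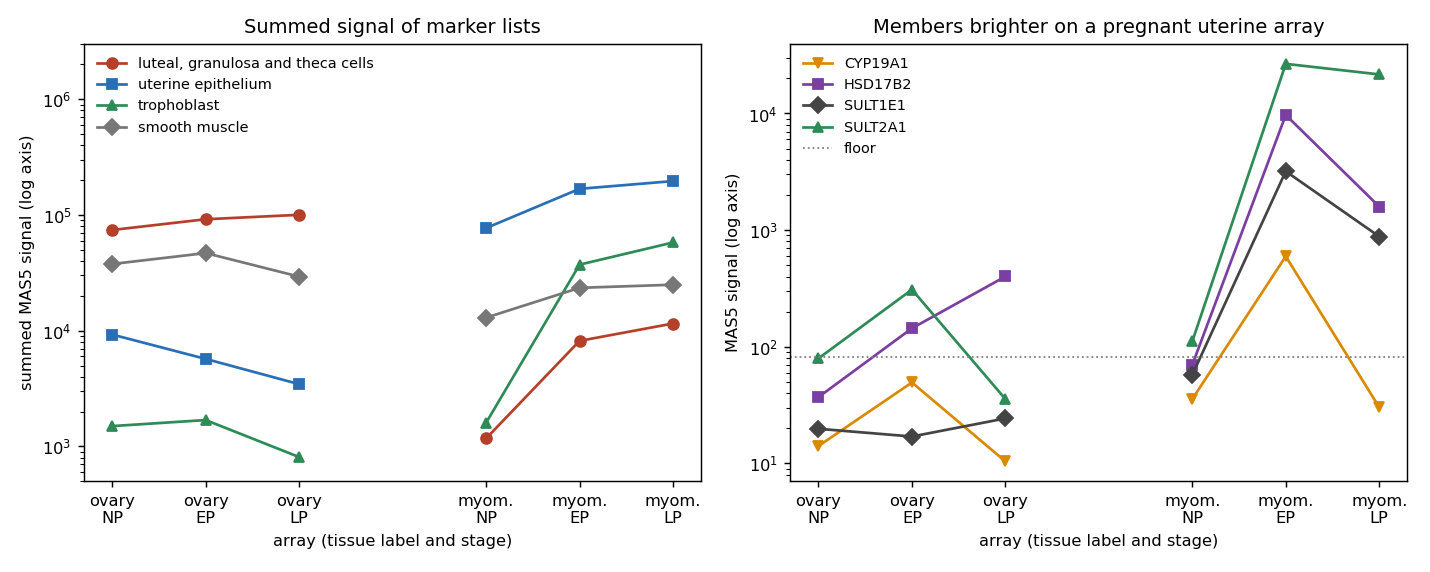
Summed MAS5 signal of 4 marker lists (left panel, log axis) and MAS5 signal of CYP19A1, HSD17B2, SULT1E1 and SULT2A1, brightest probe set (right panel, log axis), on the ovary and myometrium-labelled (myom.) arrays, with the floor of 81.7 dotted. The trophoblast sum reads 1600.4, 37195.5 and 57843 on the NP, EP and LP uterine arrays, where SULT2A1 reads 111, 26616 and 21610.1.

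The genes that feed androgen to aromatase were read beside the members. Of 8 tested genes of substrate supply, 1, FDXR, which passes electrons toward CYP11A1, was higher in ovary (5.92-fold, adjusted p = 0.0231), 7 did not pass and the median log2 difference was 1.84, against 0.013 over all tested probe sets. STAR, which brings cholesterol into mitochondria, CYP11A1, which makes pregnenolone, and HSD3B1, which makes progesterone, had log2 differences of at least 4.15, 3.71 and 4.37. CYP17A1, which makes the androgens, read 179, 138 and 147 in ovary, against 6.4, 218 and 92.4 on the arrays labelled myometrium. In early over non-pregnant uterine tissue, 4 of the 8 were 2-fold or more higher, with STAR at least 68.2-fold, HSD3B1 at least 38.0-fold, CYP11A1 at least 18.4-fold and CYP17A1 at least 2.67-fold higher. In late over non-pregnant tissue 5 were, and in ovary 0 differed by 2-fold between any stages. Of all measured probe sets, 8.76% were higher in early and 10.9% in late over non-pregnant uterine tissue. STAR, HSD3B1, CYP11A1 and CYP17A1 were under the floor on the non-pregnant uterine array and could not be called lower than it.

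Most of the tested regulators of aromatase were higher in ovary. Of 11 regulators with a probe set 8 were tested. Of these, 6 were higher in ovary and 0 in the other tissue, against 2.84% and 2.23% of all tested probe sets. The median log2 difference was 2.61, and 5 of the 6 also stand in the list of luteal, granulosa and theca genes. NR5A1, GATA4, FSHR and LHCGR were under the floor on all uterine arrays and entered the test through ovary alone, so the count is a description. NR5A2, an orphan receptor that drives aromatase in granulosa cells, was at least 56.4-fold higher, INHA, an inhibin subunit, at least 46.9-fold, and LHCGR, the receptor for luteinizing hormone, at least 38.4-fold. GATA4, NR5A1 and FSHR, the receptor for follicle-stimulating hormone, were at least 6.75-fold, 4.99-fold and 3.72-fold higher. INHA was 2-fold or more lower in early pregnant than in non-pregnant ovary, with a log2 ratio of -1.28, where the CYP19A3 ratio was -0.78. GATA6 did not pass (2.46, adjusted p = 0.0617) and was at least 2.62 on the log2 scale above non-pregnant on the early pregnant array labelled myometrium. INHBA did not pass either, with a log2 difference of -0.14 (adjusted p = 0.849). FOXL2 and NR0B1 were under the floor on every array, ovary included. CREB1 was above it on the early pregnant uterine array alone, and none of these last genes could be tested.

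The other 17-beta dehydrogenases showed no tissue call. Of 5 tested, 0 passed, against 5.07% of all tested probe sets in either direction, and their median log2 difference was 0.38. A count of 0 among so few genes is near that share. HSD17B7, which reduces oestrone and also serves cholesterol synthesis, read 2681, 995 and 2504 on the NP, EP and LP ovary arrays, against 508, 4088.5 and 1474 on the arrays labelled myometrium. HSD17B7 was lowest among the ovary arrays and highest among the uterine arrays in early pregnancy. HSD17B12 was 1.33 and 1.30 above non-pregnant on the early and late pregnant uterine arrays on the log2 scale, HSD17B14 was 1.65 above it on the late pregnant array, and HSD17B10 was -1.40 from it there.

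Sulfonation also needs a sulfate donor, PAPS. PAPSS2, which makes it, read 3054, 6883 and 7315 on the NP, EP and LP ovary arrays, against 848, 966 and 1605 on the arrays labelled myometrium. PAPSS2 was 4.89-fold higher in ovary by limma, or 2.29 with an SE of 0.25 on the log2 scale (adjusted p = 0.0138), the tissue in which SULT1E1 was under the floor. PAPSS1, its sister enzyme, differed by 0.16 and did not pass. Of 4 tested genes in the list of sulfonation, donor supply and desulfation, PAPSS2 alone passed, against 5.07% of all tested probe sets in either direction. SULT1A3 was 1.66 lower on the log2 scale in late pregnant than in non-pregnant ovary.

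Other clearance enzymes and carriers gave 0 of 4 tested past the threshold, against 5.07% of all tested probe sets in either direction. ABCG2, an efflux pump that carries sulfated steroids, read 1677, 2305 and 1594 in ovary, against 1182, 5358 and 904 on the arrays labelled myometrium, the early pregnant array being highest. SLCO3A1 was -1.45 and UGT2B31, a glucuronosyltransferase, at least 1.42 on the log2 scale in early over non-pregnant uterine tissue. CYP3A29 was 1.10 in early over non-pregnant ovary.

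Oestrogen receptor alpha and the progesterone receptor were lower on the pregnant uterine arrays, where SULT2A1, SULT1E1 and HSD17B2 were higher. ESR1, the oestrogen receptor alpha, read 92.4, 233 and 231 on the NP, EP and LP ovary arrays, against 902, 98.6 and 67.8 on the arrays labelled myometrium. PGR, the progesterone receptor and a target of ESR1, read 128, 142 and 128 in ovary, against 1498, 216 and 99.4. The non-pregnant array labelled myometrium was the highest of all 6 for both genes. Neither passed between tissues (adjusted p = 0.936 and 0.388). Of the 4 tested genes in that list LPAR3, an oestrogen-induced lysophosphatidic acid receptor of the pig endometrium, alone passed and was at least 7.61-fold higher on the arrays labelled myometrium (log2 difference -2.93, adjusted p = 0.0199). LPAR3 was under the floor on all ovary arrays and so entered the test through the uterine arrays alone. It read 1205, 410 and 487 on the uterine arrays in order of stage, with both pregnant arrays lower. STC1 read 109.5, 749 and 170.3 on the uterine arrays in order of stage, with early pregnancy highest. ESR2 was under the floor on every array.

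For the 6 members with a tested probe set, the genes with the most similar log2 profile over the 6 arrays were sought among 587 other genes with an SD of at least 1. Values at the floor and the tissue contrast are shared by many of these genes, so the correlations are descriptions. CYP19A3 was most like NR5A2 (Pearson's r = 0.998), INHA (0.997) and MRAP (0.996), and 57 genes reached 0.95. HSD17B1 was most like the magnesium carrier SLC41A1 (0.994), the secreted glutathione peroxidase GPX3 (0.987) and the receptor S1PR1 (0.979). With HSD17B1, 20 genes reached 0.95. HSD17B4 was most like OGDHL (0.984), ADHFE1 (0.971) and ACADSB (0.958), enzymes of mitochondrial metabolism. ACADSB read 1337, 3043 and 6596 on the NP, EP and LP ovary arrays, against 767.5, 637 and 437 on the arrays labelled myometrium, the same order in ovary as HSD17B4.

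Among the sulfotransferases, SULT1E1 was most like the glucose carrier SLC2A2 (Pearson's r above 0.999 over 6 arrays, with both at the floor on 4), the protease inhibitor SERPINB2 (0.999) and the glucose carrier SLC2A1 (0.991). SERPINB2 was at the floor on the same 4 arrays, and 41 genes reached 0.95 with SULT1E1. SLC2A1 read 672, 537 and 449.5 on the NP, EP and LP ovary arrays, against 612, 7302 and 3759 on the arrays labelled myometrium. SULT2A1 was most like PAG6 (0.997), GRN, which encodes granulin (0.995), and GATA3 (0.993), and 57 genes reached 0.95. HSD17B2 was most like SCPEP1 (0.958), GGTA1P (0.958) and the glutamate carrier SLC1A1 (0.953), and 4 genes reached 0.95, against 3 for HSD17B4. The HSD17B2 signal was higher in late than in early pregnant ovary but lower in late than in early pregnant uterine tissue.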

How the data were processed

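Array intensity was deposited as linear MAS5 signals, per the submitters' processing notes, with no software version or setting given in the sources used here. After 2% was trimmed from each end, each array averaged 500.1, so the arrays share one scale and changes in total RNA cannot be seen. All 6 columns matched a sample. Of 24123 probe sets, 124 with a control prefix were left out. Symbols came from the platform annotation, with 10069 probe sets under 1 symbol, and all 18 member symbols were the same in the RefSeq gene table. No genome or sequence table was used here, so positions and sequences are not given.

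Signals under 81.7 were raised to it, log2 was taken, and the 15882 probe sets above it on at least 2 arrays were fitted with limma 3.58.1 (R 4.3.3) by tissue plus stage, with an intensity trend, moderated variances and Benjamini-Hochberg adjustment. The fit was tested on simulated data. Lists used the brightest probe set of a gene. Named from each list were genes past the tissue test and up to 4 more with the largest stage ratio of 2-fold or more; SD and r limits for similar genes were 1 and 0.95. Members and lists were chosen with earlier results of these data known. Alternatives were floors at the 25th and 60th percentiles, a pseudocount of 16, quantile or median scaling, no filter, no trend, no stage block, leaving out a stage, and averaged probe sets. The number of arrays limits precision.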

Additional observations from a re-analysis of the deposited data

Results flagged for a closer look

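Late over early pregnancy ran in opposite directions in the tissues for HSD17B1 and HSD17B2, each by 2-fold or more. The HSD17B1 log2 ratio was 1.40 in ovary and -2.74 or below on the arrays labelled myometrium, a gap of at least 4.14. For HSD17B2 the ratios were 1.48 and -2.61, a gap of 4.08. Each ratio rests on 1 array per stage and the difference was not tested. The probe set named for 3 aromatases, which the choice of members left out, read 1488 (1487.6) on the late pregnant array labelled myometrium, against 3.9 on the non-pregnant one.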

How the results depend on the processing

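No paired analysis was possible because the labels carry no replicate numbers. The stage term of the fit already sets the arrays of a stage against each other, and the fit without it is among the alternatives. Against 451 probe sets higher in ovary and 354 higher in the other tissue, the floor at the 60th percentile gave 298 and 179, no filter 0 and 0, no stage block 715 higher in ovary, and leaving out a stage 0 to 138 and 0 to 260. The synthesis probe sets higher in ovary, 4 in all, were 0 with no filter (the brightest CYP19A3 probe set had adjusted p = 0.193 and HSD17B1 0.291) and 0 to 2 when a stage was left out, with 1 residual degree of freedom. HSD17B1 did not pass without any of the stages (adjusted p = 0.0619 to 0.0980). Inactivation probe sets higher on the arrays labelled myometrium were 0, and 0 to 1 when a stage was left out. No filter gave 4 shared changes in early and 3 in late over non-pregnant tissue. With the floor at the 25th percentile, 1 synthesis probe set was lower in early and in late over non-pregnant ovary, 1 inactivation probe set was lower in late over non-pregnant ovary, and 2 were higher in late over early pregnant ovary, as with the pseudocount. With the floor at the 60th percentile, inactivation counts in ovary were 1 higher in early and 1 in late over non-pregnant, and 0 higher and 0 lower in late over early. Centring on the median gave 2 synthesis probe sets higher in late over early pregnant ovary. The lower floor and the pseudocount each gave 1 synthesis probe set higher in late over early pregnant uterine tissue and 1 inactivation probe set with all uterine arrays above ovary. Lower floors add dim signals to the count, and higher floors remove them. Averaging a gene's probe sets left 1 of 2 synthesis genes higher in ovary and ended the calls of LPAR3 and GATA2. No tested alternative turned a direction.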
